A study of Mus musculus with 12 samples.

Results

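The CCN family of secreted matricellular proteins was examined in inguinal white adipose tissue (iWAT) through 5 of the 54134 genes in the deposited count table. These are *Cyr61* (now Ccn1), *Ctgf* (Ccn2), *Nov* (Ccn3), *Wisp1* (Ccn4) and *Wisp2* (Ccn5), chosen by name, with 1 gene identifier behind each symbol. RNA-seq had been performed on iWAT of 12 male C57BL/6J mice, 6 AAV-GFP and 6 AAV-Notum. At 8 weeks of age all mice received, through the tail vein, an equal dose of an adeno-associated virus that drives its cargo from the liver-specific thyroxine binding globulin promoter. The cargo was green fluorescent protein (GFP) in AAV-GFP mice and mouse *Notum*, which encodes a secreted enzyme that removes the lipid Wnt ligands need, in AAV-Notum mice. After 4 weeks on a chow diet the mice were fasted for 4 h and the fat was collected at 12 weeks of age. Every control carries the virus too, and the series has no uninjected mice. Each library comes from 1 mouse, and the comparison asks how CCN transcripts of fat stand when a Wnt inhibitor is overexpressed in the liver.

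CCN proteins are secreted into the extracellular matrix, where they bind integrins, heparan sulfate proteoglycans and growth factors and change how cells respond to them. *Cyr61* and *Ctgf* are rapidly inducible genes and textbook targets of the Hippo pathway effectors YAP and TAZ, which act through TEAD transcription factors, and *Ctgf* is also a classical TGF-β response gene. *Wisp1* and *Wisp2* were named as genes induced by Wnt signaling, and *Wisp2* is known in fat as a product of adipose precursor cells. The WISP2 protein lacks the C-terminal cystine knot domain that the other members carry.

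Between 15266635 and 21618860 reads fell on genes for the AAV-GFP group (median 18378579), and 14711113 to 17838229 for the AAV-Notum group (median 17361386). Levels are given as CPM, reads scaled to the size of the library. Summed over 7 adipocyte markers they ran from 22999.5 to 38658 CPM in AAV-GFP and from 19741 to 46259 CPM in AAV-Notum mice. Lymphoid transcripts varied widely: the mean log2 CPM of 15 lymphoid markers was 0.20 in AAV-GFP-2011, 3.46 in AAV-GFP-2012 and -0.48 in AAV-GFP-2014, against 5.12 to 7.16 elsewhere. The RNA integrity number was lowest in AAV-GFP-2011 (5.7) and 6.6 to 7.6 elsewhere, and RNA of AAV-GFP-2012 was extracted 22 days after collection against 2 days for the other 11 mice. In this bulk tissue, fewer cells of a type and less RNA per cell cannot be told apart. The *Notum* transgene is built for liver, so its reads in fat do not check the labels: *Notum* was 0.06 to 0.99 CPM in AAV-GFP mice, 29.3 CPM in AAV-Notum-2032, 26.6 CPM in AAV-Notum-2041 and 0.46 to 0.91 CPM in the other 4 AAV-Notum mice.

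All 5 genes passed edgeR's filter on low counts. The order of abundance, compared per length as CPM per kb of exon, was led by *Cyr61*. In AAV-GFP mice, called controls from here on, *Cyr61* stood at 11.4 ± 4.15 CPM per kb (SD, n = 6), *Wisp2* at 2.99 ± 0.945, *Ctgf* at 2.11 ± 0.467, *Nov* at 0.838 ± 0.330 and *Wisp1* at 0.134 ± 0.131. In AAV-Notum mice the levels were 7.496 ± 2.89 CPM per kb (SD, n = 6) for *Cyr61*, 1.73 ± 0.582 for *Wisp2*, 1.64 ± 0.317 for *Ctgf*, 0.643 ± 0.197 for *Nov* and 0.149 ± 0.0397 for *Wisp1*. *Cyr61* was the highest and *Wisp1* the lowest of the 5 in all 12 mice. *Wisp2* and *Ctgf* were not separated: *Wisp2* was above *Ctgf* in 5 of 6 AAV-GFP mice and in 3 of 6 AAV-Notum mice. *Cyr61* made up 64.1% ± 8.42 of the length-scaled total of the 5 genes among controls and 62.3% ± 9.95 among AAV-Notum mice (6 each, SD). The length is that of all annotated exons of a gene, which is only an estimate of the transcripts present.

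**Figure D1:**
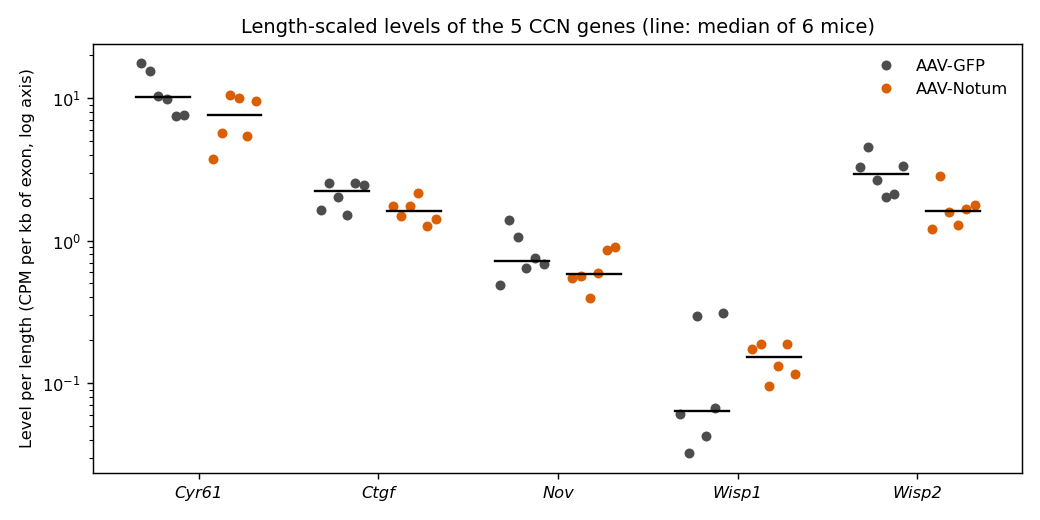
Level of each CCN gene in CPM per kb of exon (log axis), 1 point per mouse, with a line at the median of 6 mice. Cyr61 lies above all other members and Wisp1 below them in every mouse, while the points of Wisp2 and Ctgf overlap.

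A further family gene, *Wisp3* (Ccn6), had 0 to 3 reads in AAV-GFP mice (7 in all) and 0 to 4 reads in AAV-Notum mice (7 in all). It was at 0 in 5 of 12 mice, where a count of 0 still allows up to 3 reads, and it did not pass the filter.

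With edgeR's quasi-likelihood test over 15585 genes, 0 of the 5 members passed an adjusted p of 0.05, where 0.0513% of all genes tested were called lower and 0.0% higher. At an unadjusted p under 0.05, 1 member, *Wisp2*, was lower (9.54% of all genes tested) and 0 were higher (4.64%). DESeq2 and limma-voom also gave 0 members at an adjusted p under 0.05 (2.18% and 0.0385% of all genes lower). For *Wisp2* the unadjusted p was 0.00338 in DESeq2 and 0.00921 in limma-voom, and for *Cyr61* 0.0463 and 0.0515. The other members were above 0.05 with both tools. The share of all genes at an unadjusted p under 0.05 was not taken for these tools. Of the 5 log2 fold changes 4 were below 0, against 48.8% of all genes tested, with a median of -0.38 against 0.01 over all genes. For 0 of the 5 members did the groups separate without overlap, which happened for 0.693% of all genes in the lower and 0.398% in the higher direction.

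**Figure D2:**
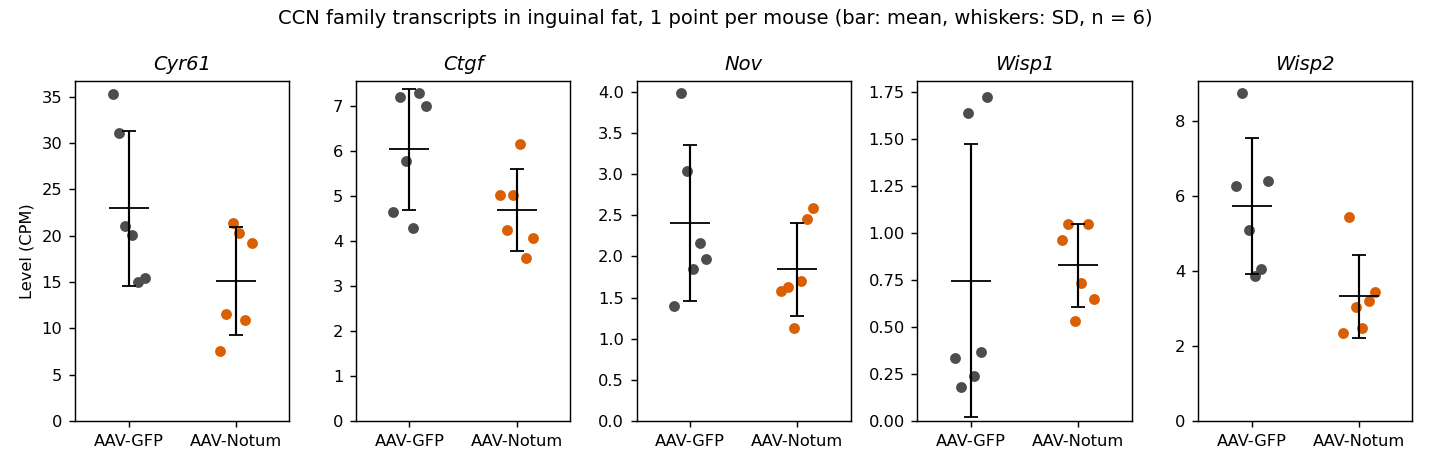
Level of each CCN gene in CPM, 1 point per mouse, with a bar at the mean and whiskers of 1 SD (n = 6 per group); each panel has its own axis from 0. Wisp2 shows the clearest shift, with 5 of 6 AAV-Notum points under the lowest control, and the Wisp1 values of AAV-GFP mice fall apart into 4 low and 2 high points.

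*Wisp2*, the member tied most closely to adipose precursors, had the smallest p of the family. Its gene (ENSMUSG00000027656) lies on chromosome 2 of GRCm38 from 163820861 to 163833146, and it gathered 44 to 147 reads per mouse. *Wisp2* ran from 3.87 to 8.75 CPM in AAV-GFP mice (median 5.68) and from 2.34 to 5.45 CPM in AAV-Notum mice (median 3.12). Each of the 6 AAV-Notum values lay under the control mean and 5 lay under the lowest control, the exception being AAV-Notum-2032, at 5.45 CPM. That mouse is also the one with the most *Notum* reads in fat, at 560, and AAV-Notum-2041, with 433, had 3.20 CPM of *Wisp2*. A relation between *Notum* reads and *Wisp2* was not tested. The *Wisp2* log2 fold change was -0.79 ± 0.25 (SE, with a 95% interval of -1.33 to -0.24), which is 0.58-fold. The unadjusted p was 0.00867 and the adjusted p 0.214 from edgeR, and an exact permutation test (two-sided, log2 CPM) gave p = 0.0152. Its log2 fold change was -0.98 without AAV-Notum-2032 and -0.63 without AAV-GFP-2012, the mouse with the highest level. It was -0.82 once RNA integrity and -0.81 once the lymphoid score was made a covariate (edgeR adjusted p = 0.407 and 0.439). Without the 3 AAV-GFP mice of lowest lymphoid score it was -0.64 (unadjusted p = 0.0402, edgeR adjusted p = 0.879). The list of 10 adipose progenitor markers summed to 1420 to 2324 CPM (median 1856) in AAV-GFP mice and to 1403 to 1625 CPM (median 1455) in AAV-Notum mice. All 10 were tested, and 2 were lower and 0 higher at an edgeR unadjusted p under 0.05 (9.54% and 4.64% of all genes tested). The part of these cells in the *Wisp2* difference was not tested.

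The genes whose levels followed *Wisp2* most closely among the 12 mice, taken as deviations of log2 CPM from the group mean over 14429 genes, were *Itga11*, *Slfn5* and *Ltbp1*. *Itga11*, which encodes the α11 chain of a collagen-binding integrin, had a Pearson r of 0.97 and a Spearman rho of 0.95 with *Wisp2*. For *Slfn5* the values were 0.86 and 0.65, and for *Ltbp1*, which encodes a protein that anchors latent TGF-β in the matrix, 0.86 and 0.81. These genes were picked as the closest, so the values are a description without a test. *Itga11* had a log2 fold change of -0.54 (unadjusted p = 0.0412, edgeR adjusted p = 0.333) and *Ltbp1* one of -0.38 (unadjusted p = 0.01002, edgeR adjusted p = 0.221), while *Slfn5* was at -0.07 (unadjusted p = 0.576, edgeR adjusted p = 0.761).

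*Cyr61* (ENSMUSG00000028195, chromosome 3 of GRCm38, 145646976 to 145649981) encodes an angiogenic CCN protein and had the most reads, 148 to 630 per mouse. A promoter sequence from RefSeq (GRCm38.p6) was used for 1 member, *Cyr61*. Its 250 bases before the annotated start (chr3:145649986-145650235, minus strand) are shown because *Cyr61* is a classical TEAD target and the TEAD genes are described further on, with the TEAD motif in capitals.

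Cyr61: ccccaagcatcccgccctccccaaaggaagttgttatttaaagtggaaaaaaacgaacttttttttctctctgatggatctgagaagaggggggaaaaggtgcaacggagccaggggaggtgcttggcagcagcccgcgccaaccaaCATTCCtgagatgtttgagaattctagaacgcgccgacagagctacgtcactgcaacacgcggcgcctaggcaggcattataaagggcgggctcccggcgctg

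The TEAD motif, CATTCC on either strand, occurs once, 103 to 98 bases before the start, and 12.6% of 32851 promoter windows of the same length hold it. A CRE core motif (TGACG on either strand, in 17.8% of the windows) lies 58 to 54 bases and a TATA box (TATAAA on either strand, in 12.4%) 25 to 20 bases before the start. The AP-1 motif TGANTCA (in 6.75%) and the TCF/LEF motifs CTTTGAA (4.46%) and CTTTGAT (3.21%) have no match on either strand of this window, and none of the motifs found overlaps another. These matches describe letters only and say nothing of binding in fat.

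*Cyr61* ran from 14.997 to 35.3 CPM in AAV-GFP mice (median 20.5) and from 7.52 to 21.3 CPM in AAV-Notum mice (median 15.4). Again each of the 6 AAV-Notum values lay under the control mean, but 3 of them were within the range of the controls. The log2 fold change was -0.60 ± 0.30 (SE, with a 95% interval of -1.25 to 0.04, edgeR adjusted p = 0.370), and the exact permutation test gave p = 0.0844, which does not separate the groups beyond their spread. The highest controls were AAV-GFP-2011, with 35.3 CPM and the lowest RNA integrity number, and AAV-GFP-2012, with 31.1 CPM and the late RNA extraction. Once RNA integrity was made a covariate the log2 fold change was -0.39 (edgeR adjusted p = 0.688). With the lymphoid score as a covariate it was -0.27 (adjusted p = 0.848), and it was -0.19 without the 3 AAV-GFP mice of lowest lymphoid score. Genes closest to *Cyr61* over the 12 mice were *Polr2c*, *Eif1* and *Hmox2*, with Pearson r of 0.92, 0.91 and 0.90, and none of these differed between the groups at an unadjusted p under 0.05.

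*Ctgf* (ENSMUSG00000019997, chromosome 10, 24595442 to 24598683), the profibrotic member, gathered 59 to 158 reads per mouse. Its levels ran from 4.29 to 7.29 CPM in AAV-GFP mice (median 6.41) and from 3.63 to 6.17 CPM in AAV-Notum mice (median 4.64). Of the 6 AAV-Notum values 5 lay under the control mean and 3 under the lowest control, and the ranges overlapped. The log2 fold change of *Ctgf* was -0.36 ± 0.18 (SE, with a 95% interval of -0.75 to 0.03, edgeR adjusted p = 0.372), with an exact permutation p of 0.0801. The lowest controls for *Ctgf* were AAV-GFP-2014 and AAV-GFP-2011, at 4.29 and 4.65 CPM, which also had the lowest lymphoid scores. Without these mice its log2 fold change was -0.54 (unadjusted p = 0.00841, edgeR adjusted p = 0.519), and with the lymphoid score as a covariate -0.58 (unadjusted p = 0.00479, adjusted p = 0.395). On the opposite strand, *Gm15270* shares 665 exon bases with *Ctgf* and had 39 reads over all mice against 1134 on *Ctgf*, and whether the counting used strand is not given in the sources used here. The genes closest to *Ctgf* were *H2-K1*, *Nup88* and *Rbm17*, with Pearson r of 0.92, 0.92 and 0.90. Between the groups they were on the other side of 0 from *Ctgf*, with log2 fold changes of 0.26 for *H2-K1* (unadjusted p = 0.0315, edgeR adjusted p = 0.310), 0.11 for *Nup88* (0.0865 and 0.401) and 0.18 for *Rbm17* (0.0164 and 0.253).

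**Figure D3:**
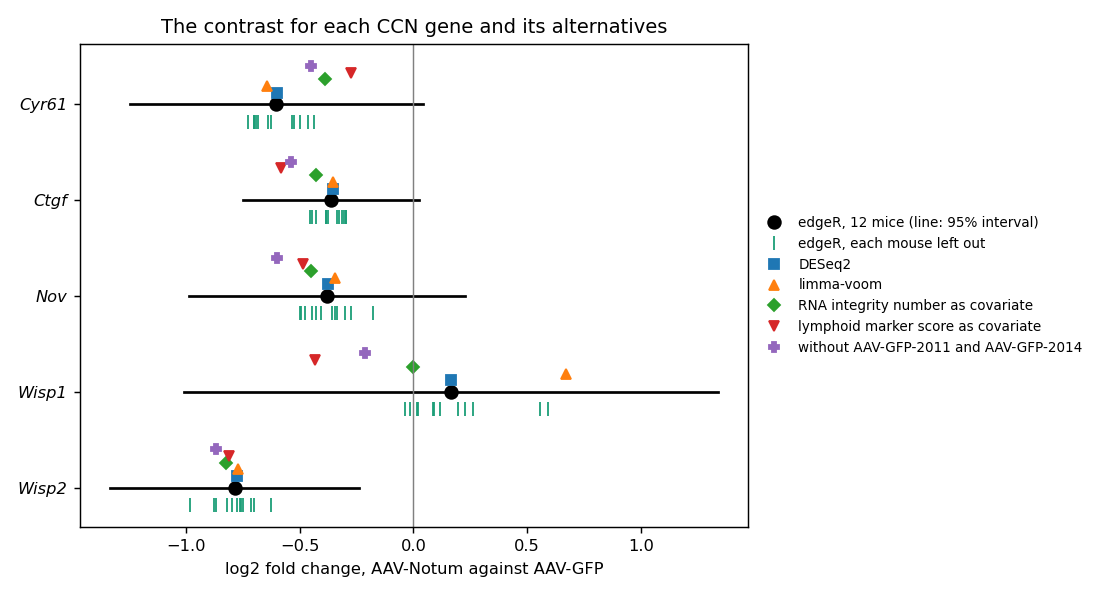
The log2 fold change of each CCN gene (AAV-Notum against AAV-GFP), with black points and 95% intervals from edgeR on 12 mice, green ticks for each mouse left out, and coloured symbols for other tools, covariates or mice left out. The interval of Wisp2 alone lies wholly below 0, and the values of Wisp1 fall on both sides of 0.

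*Nov* (ENSMUSG00000037362, chromosome 15, 54745702 to 54754039), a member known to bind NOTCH1 and to restrain proliferation, had 17 to 67 reads per mouse. It ran from 1.401 to 3.99 CPM in AAV-GFP mice (median 2.07) and from 1.13 to 2.59 CPM in AAV-Notum mice (median 1.66), with 1 AAV-Notum mouse below every control. The log2 fold change was -0.38 ± 0.28 (SE, with a 95% interval of -0.99 to 0.23, edgeR adjusted p = 0.494), with an exact permutation p of 0.242. It was -0.18 without AAV-GFP-2012, the highest mouse, and -0.60 without AAV-GFP-2014 and AAV-GFP-2011 (unadjusted p = 0.0561, edgeR adjusted p = 0.708). *Cadm3*, a nectin-like cell adhesion gene, was the closest gene to *Nov*, with a Pearson r of 0.93 and a Spearman rho of 0.90, ahead of *Zc3h15* and *Ankrd28*, and the log2 fold changes of these 3 genes were -0.15, 0.01 and 0.22 (edgeR adjusted p = 0.607, 0.963 and 0.358).

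*Wisp1* (ENSMUSG00000005124, chromosome 15, 66891320 to 66923201), also described as an adipokine, was the scarcest member with 3 to 28 reads per mouse. Its levels ran from 0.18 to 1.72 CPM in AAV-GFP mice (median 0.353) and from 0.53 to 1.05 CPM in AAV-Notum mice (median 0.850). The controls spanned both ends: AAV-GFP-2013 and AAV-GFP-2022 had 1.64 and 1.72 CPM, above every AAV-Notum mouse, and the other 4 had 0.18 to 0.37 CPM, below every AAV-Notum mouse. The log2 fold change was 0.17 ± 0.54 (SE, with a 95% interval of -1.01 to 1.34, edgeR adjusted p = 0.880; exact permutation p = 0.323), and it turned to -0.04 without AAV-GFP-2012 and to -0.01 without AAV-GFP-2014. It was 0.56 without AAV-GFP-2013 and 0.59 without AAV-GFP-2022, the 2 highest controls, 0.67 in limma-voom and 0.000214 with RNA integrity as the covariate. The 3 controls of lowest lymphoid score had 0.18 to 0.34 CPM, the other 3 controls 0.37 to 1.72 CPM. With the lymphoid score as a covariate the log2 fold change of *Wisp1* was -0.43 (edgeR adjusted p = 0.816), and without the 3 controls of lowest score -0.55. Close to *Wisp1* over the 12 mice were *Gm22009* and *2200002D01Rik*, with Pearson r of 0.96 and 0.94 and log2 fold changes of -0.91 and -0.27 (edgeR adjusted p = 0.507 and 0.510).

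**Figure D4:**
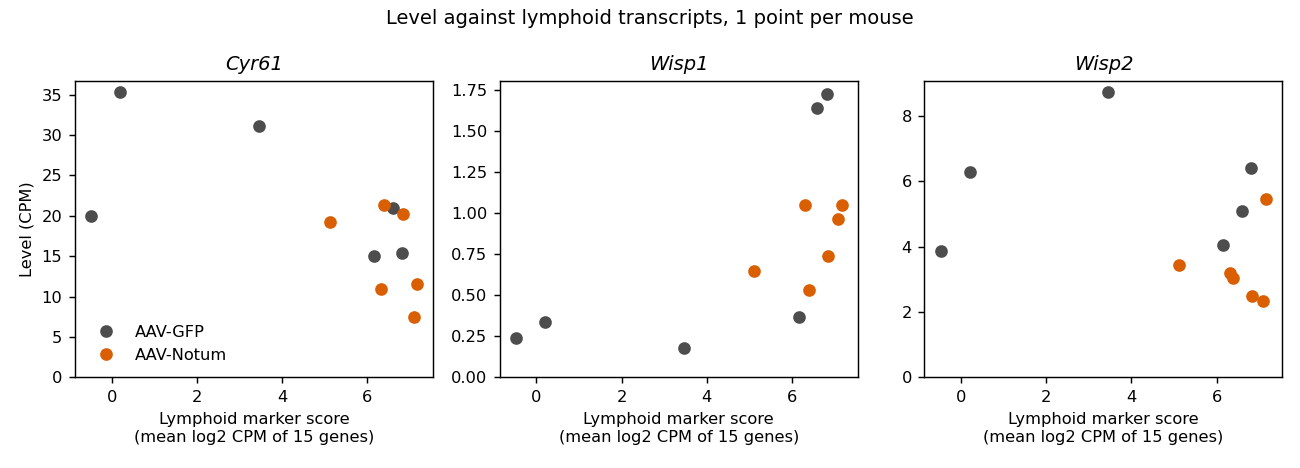
Levels in CPM of Cyr61, Wisp1 and Wisp2 against the lymphoid marker score (mean log2 CPM of 15 genes), 1 point per mouse. The 3 AAV-GFP mice with scores of 3.46 or less had 20.02 to 35.3 CPM of Cyr61 and 0.18 to 0.34 CPM of Wisp1.

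The spread of each member among mice was taken from the same fit. The biological coefficient of variation fitted by edgeR was 60.5% for *Wisp1*, 36.8% for *Cyr61*, 32.9% for *Nov*, 32.1% for *Wisp2* and 24.0% for *Ctgf*. Counting error, which comes on top of this, is 27.1%, 5.52%, 16.5%, 11.3% and 10.3% at their mean reads. No relation between members was detected among mice. Of 10 pairs, compared as deviations from the group mean over 12 mice, 0 passed 0.05 (permutation tests within groups). The pair with the smallest p was *Cyr61* and *Wisp1*, with r = -0.49 (permutation p = 0.0952, adjusted 0.943) and rho = -0.50 (permutation p = 0.106, adjusted 1.0), and r was -0.49 again without the 2 mice farthest from the median of *Cyr61*. The r of the other 9 pairs lay between -0.03 and 0.28. Whether the members differed in their response was tested on the log2 ratio of each pair within a mouse. The largest difference was that of *Wisp1* to *Wisp2*, whose log2 ratio was -3.12 ± 1.26 among controls and -1.85 ± 0.472 among AAV-Notum mice (6 each, SD) (exact permutation p = 0.0455, adjusted over the 10 pairs 0.335). The ratio of *Wisp2* to *Ctgf* was not shown to differ between the groups (*Ctgf* to *Wisp2* log2 ratio 0.10 ± 0.437 and 0.52 ± 0.609, SD, n = 6, exact permutation p = 0.201). With 0 of 10 pairs passing, the data did not set *Wisp2* apart from the other members.

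Genes around the family were then read from 6 lists, which overlap in part. The Hippo pathway list, the machinery upstream of *Cyr61* and *Ctgf*, had 21 of 22 genes tested, of which 19 had a log2 fold change below 0 (48.8% of all genes tested). The median of its log2 fold changes was -0.22. Of the genes tested, 7 were lower and 0 higher by an unadjusted p under 0.05 (9.54% and 4.64% of all genes tested). The adjusted p was passed by 0 in edgeR or limma-voom (0.0513% and 0.0385% of all genes lower) and by 3 in DESeq2 (*Amot*, *Tead1* and *Vgll3*, against 2.18% of all genes lower). *Vgll3*, a TEAD cofactor, had 18.2 ± 8.67 CPM among controls and 5.43 ± 1.14 CPM among AAV-Notum mice (6 each, SD), without overlap, a log2 fold change of -1.74 ± 0.32 (SE, edgeR adjusted p = 0.0866). *Tead1*, which encodes a TEAD factor, had 155 ± 33.2 CPM among controls and 83.6 ± 26.4 CPM among AAV-Notum mice (6 each, SD), a log2 fold change of -0.89 ± 0.20 (SE, edgeR adjusted p = 0.124). *Amot*, which encodes a scaffold that holds YAP at cell junctions, had a log2 fold change of -0.55 (edgeR adjusted p = 0.177). Of the 12 fits that left out a mouse, 1 called *Vgll3*, that without AAV-GFP-2022 (edgeR adjusted p = 0.0191, and up to 0.243 in the others), and 0 called *Tead1* or *Amot*. After adjustment for the lymphoid score the log2 fold changes were -1.27 for *Vgll3* (edgeR adjusted p = 0.255), -0.59 for *Tead1* (0.384) and -0.32 for *Amot* (0.535). *Yap1* and *Wwtr1*, which encode YAP and TAZ and were chosen after their values were seen, had -0.48 and -0.53 (edgeR adjusted p = 0.292 and 0.310). They came to -0.15 and -0.12 after adjustment for the lymphoid score, and to -0.17 and -0.11 without the 3 controls of lowest score.

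The list of other YAP/TAZ-TEAD targets had log2 fold changes on both sides of 0. Of 18 genes tested, 11 had a log2 fold change below 0 (48.8% of all genes), with a median of -0.04. At an unadjusted p under 0.05, 5 were lower and 0 higher (9.54% and 4.64% of all genes tested). At an adjusted p under 0.05, edgeR and limma-voom called 0, and DESeq2 called 4 lower (2.18% of all genes). *Crim1*, which encodes a membrane protein that binds BMPs, had 72.1 ± 16.9 CPM among controls and 44.1 ± 3.15 CPM among AAV-Notum mice (6 each, SD), without overlap (log2 fold change -0.71, edgeR adjusted p = 0.102). *Arhgef17* and *Rbms3* had log2 fold changes of -0.30 and -0.66 (edgeR adjusted p = 0.142 and 0.146). With a mouse left out, *Crim1* and *Rbms3* were each called in 1 of 12 fits, that without AAV-GFP-2022 (edgeR adjusted p = 0.0294 and 0.0314, and up to 0.262 and 0.311 in the others). After adjustment for the lymphoid score *Crim1* was at -0.44 and *Rbms3* at -0.34 (edgeR adjusted p = 0.264 and 0.437), and without the 3 controls of lowest score at -0.37 and -0.36. *Ankrd1* and *Foxf2* did not pass the filter.

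Among CCN receptors and binding partners 21 of 22 genes were tested, and 16 had a log2 fold change below 0 (median -0.24, against 48.8% of all genes below 0). At an unadjusted p under 0.05, 10 were lower and 0 higher (9.54% and 4.64% of all genes tested). At an adjusted p under 0.05, edgeR and limma-voom called 0, and DESeq2 called 4 lower (*Hspg2*, *Itga5*, *Lrp1* and *Lrp6*, against 2.18% of all genes). *Itga5*, the α5 chain of the fibronectin receptor, had 30.8 ± 3.24 CPM among controls and 21.9 ± 3.02 CPM among AAV-Notum mice (6 each, SD), a log2 fold change of -0.49 (edgeR adjusted p = 0.105). *Lrp6*, the Wnt co-receptor that CTGF binds, had 209.8 ± 39.2 CPM among controls and 144 ± 21.7 CPM among AAV-Notum mice (6 each, SD), a log2 fold change of -0.54 (adjusted p = 0.142). *Hspg2*, which encodes the heparan sulfate proteoglycan perlecan, had a log2 fold change of -0.80 (edgeR adjusted p = 0.140). It was called in 1 of 12 fits that left out a mouse, that without AAV-GFP-2022 (edgeR adjusted p = 0.0461, and up to 0.307 in the others). After adjustment for the lymphoid score *Hspg2* was at -0.45 and *Lrp6* at -0.31 (edgeR adjusted p = 0.429 and 0.431), without the 3 controls of lowest score at -0.43 and -0.28, while *Itga5* was at -0.47 and -0.43.

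All 18 TGF-β response genes were tested, and 12 had a log2 fold change below 0 (median -0.25, against 48.8% of all genes below 0). At an unadjusted p under 0.05, 9 were lower and 1 higher (9.54% and 4.64% of all genes tested). At an adjusted p under 0.05, edgeR and limma-voom each called 1 gene of the list lower and 0 higher (0.0513% and 0.0385% of all genes lower). DESeq2 called 7 lower (2.18% of all genes). The list of 20 immediate early genes, to which *Cyr61* is often added, had 17 genes tested with a median log2 fold change of 0.23, 8 below 0 and 9 above. The adjusted p was passed by 1 gene, *Fosl2*, in edgeR and limma-voom (0.0513% and 0.0385% of all genes lower) and by 3 in DESeq2 (*Fosl2*, *Jun* and *Klf4*, all lower, against 2.18%). *Fosl2*, an AP-1 subunit, had 51.4 ± 8.03 CPM among controls and 30.8 ± 2.55 CPM among AAV-Notum mice (6 each, SD) (log2 fold change -0.74, edgeR adjusted p = 0.0341). The *Fosl2* call held in 2 of 12 fits that left out a mouse, those without AAV-GFP-2013 or AAV-GFP-2022 (edgeR adjusted p = 0.0135 to 0.131 over all 12), and in 6 of 11 other alternatives. The call was lost, at a log2 fold change of -0.68 to -0.58, with RNA integrity (edgeR adjusted p = 0.0760) or lymphoid score (0.0836) as the covariate, and at -0.73 under the filter of 1 count (0.0572). Without 2 and 3 controls of low lymphoid score the log2 fold change was -0.65 and -0.53 (edgeR adjusted p = 0.214 and 0.346). Of the other genes, 3 were lower and 2 higher at an unadjusted p under 0.05 (9.54% and 4.64% of all genes tested).

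Wnt/β-catenin feedback and target genes, the class to which the WISP genes belong by name, had 16 of 18 genes tested. Of these, 7 were below 0 and 9 above (median 0.13, against 48.8% of all genes below 0). The 9 and the median include *Notum*, the gene the virus carries. They also include *Lef1* and *Tcf7*, with 3 to 1302 and 10 to 3985 reads per mouse. Their log2 fold changes were 1.03 and 0.96 (edgeR unadjusted p = 0.319 and 0.371). The part of lymphoid cells in these 2 values was not tested. At an unadjusted p under 0.05, 1 gene was lower and 1, *Notum* itself, was higher (9.54% and 4.64% of all genes tested). The adjusted p was passed by 0 in edgeR or limma-voom, and DESeq2 called both (2.18% of all genes lower and 0.482% higher). The lower gene was *Nkd1*, a feedback inhibitor of Wnt signaling, with 7.28 ± 2.90 CPM among controls and 3.53 ± 0.723 CPM among AAV-Notum mice (6 each, SD) (log2 fold change -1.04, SE 0.26, edgeR adjusted p = 0.140). After adjustment for the lymphoid score *Nkd1* was at -0.82 (edgeR adjusted p = 0.435). Beside these lists, the smooth muscle and pericyte markers summed to 380 to 608 CPM in AAV-GFP and 357 to 479 CPM in AAV-Notum mice, with 2 of 7 lower at an unadjusted p under 0.05. The endothelial markers summed to 659 to 1087 and 609 to 836 CPM, with 3 of 7 lower. In both marker lists 0 were higher (9.54% of all genes tested were lower and 4.64% higher). Among macrophage markers 2 of 9 and among hepatocyte markers 2 of 10 were lower too. The part of these cell types in the values of the 6 gene lists was not tested.

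**Figure D5:**
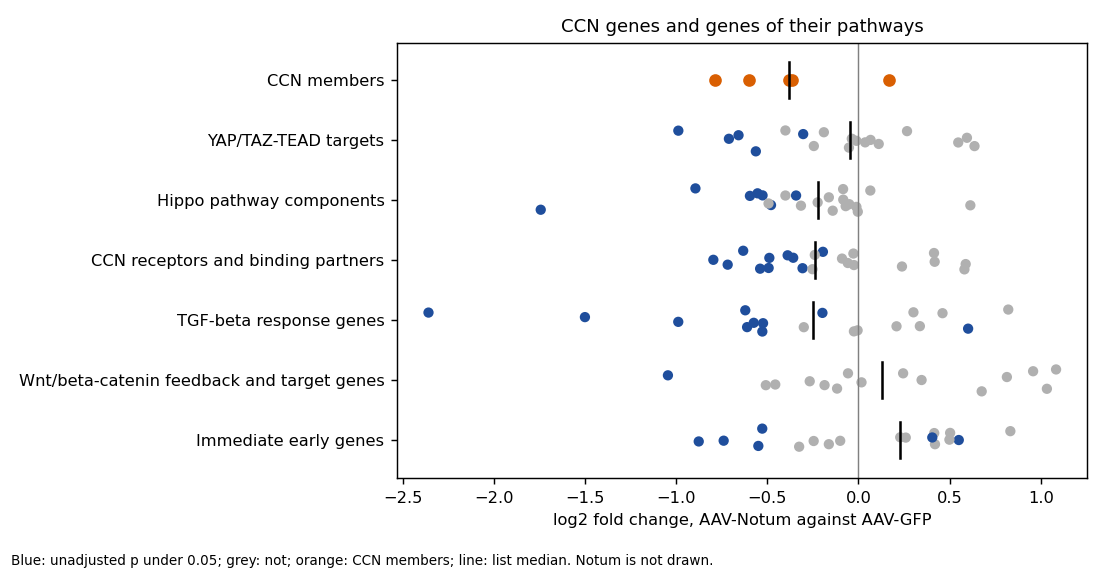
The log2 fold change (AAV-Notum against AAV-GFP) of the 5 CCN genes and of the tested genes of 6 lists, 1 point per gene, with a line at each median (over all tested genes of the list); blue points have an unadjusted p under 0.05 in edgeR, and Notum is left out. The medians run from -0.38 for the CCN genes to 0.23 for the immediate early genes.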

How the data were processed

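The authors made TruSeq libraries, sequenced single-end reads and mapped them to mm10 with STAR 2.3.1; the counter and annotation are not given in the sources used here. The deposited count table holds raw reads per gene. A second deposited table holds log2 values; when the offset of 1 and one scaling factor for each mouse were removed, 100.0% of values came out as whole reads (within 0.01), and these served as an alternative.

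Counts were fitted in R 4.3.3 with edgeR 4.0.16 (filterByExpr with minimum count 10 and minimum total 15, TMM, quasi-likelihood test, two-sided, Benjamini-Hochberg over 15585 genes, threshold 0.05). CPM were TMM-scaled, with 2 as the prior count on the log2 scale. SE was the fold change on that scale divided by the root of F. Exact permutation tests were two-sided over all 924 assignments, with a smallest p of 0.00216; correlations used 100000 permutations within groups. Fits were tested on simulated data. Lengths and positions are from GENCODE vM21 (GRCm38). Figures were drawn with matplotlib 3.10.9.

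Alternatives were DESeq2 1.42.0, limma-voom (3.58.1), RLE size factors, robust dispersion, a filter of at least 1 count in total or 10 per mouse, covariates (RNA integrity number or lymphoid score), mice left out and the second table. The members and lists were chosen with earlier results of these data known. Named genes are the members, *Wisp3*, *Notum*, each list's called genes or else its 3 of smallest p under 0.05, and each member's 3 closest genes of at least 1 CPM; *Yap1* and *Wwtr1* were added. Of the genes this rule names, 2 are not reported here. Total counts ran from 14711113 to 21618860 per mouse, and counting error is largest for *Wisp1*.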

Additional observations from a re-analysis of the deposited data

Results flagged for a closer look

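Single mice that stood apart were sought in 56 sets of 6 values (1 gene or 1 summed marker list in 1 group), and 4 sets passed Dixon's 95% critical value, where chance gives about 1 in 20, or 2.8. *Wisp2* was 5.45 CPM in AAV-Notum-2032 against 2.34 to 3.43 CPM in the other AAV-Notum mice. *Amot* was 12.3 CPM in AAV-Notum-2042 against 7.30 to 8.69 CPM. *Itga5* was 27.9 CPM in AAV-Notum-2034 against 19.7 to 21.7 CPM. The skeletal muscle markers summed to 3809 CPM in AAV-Notum-2042 against 9.22 to 566 CPM.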

How the results depend on the processing

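The direction of *Wisp2*, *Cyr61*, *Ctgf* and *Nov* held in all 11 alternatives and in all 12 fits that left out a mouse, and none of these fits gave a member an adjusted p under 0.05. *Wisp1* turned to -0.43 with the lymphoid score as a covariate, -0.21 without both AAV-GFP-2014 and AAV-GFP-2011, and -0.55 without these and AAV-GFP-2012 (added after the data were seen); with each mouse left out it ran from -0.0352 to 0.59. It had no value under the filter of 10 counts in every mouse. The count of all genes called lower, 8, was 357 in DESeq2, 13 with RLE size factors, 5 and 14 with the filters of 1 count and of 10 counts, 4 with the lymphoid score, 1 without both AAV-GFP-2014 and AAV-GFP-2011, 0 without the 3 mice, and 1 (without AAV-Notum-2033) to 146 (without AAV-GFP-2022) with each mouse left out. The 0 genes called higher became 79 in DESeq2, 1 with RLE, 1 with the filter of 10 counts, 1 with the reads of the second table, and 0 to 12 (without AAV-GFP-2022) with each mouse left out. The 2 list genes called lower became 22 in DESeq2, 1 with the filter of 1 count, 1 with either covariate, 0 without both AAV-GFP-2014 and AAV-GFP-2011 or the 3 mice, and 0 to 6 with each mouse left out; DESeq2 called 1 list gene higher. Among the ratios, that of *Cyr61* to *Ctgf* turned from -0.28 to 0.00201 with the linear part of the RNA integrity number taken out and to 0.0652 without both AAV-GFP-2014 and AAV-GFP-2011. *Cyr61* to *Nov* turned to 0.0878 and *Ctgf* to *Nov* to 0.0226 without those mice. With each mouse left out, *Cyr61* to *Wisp2* ran from -0.0278 to 0.35 and *Ctgf* to *Nov* from -0.16 to 0.14. The cause of these shifts was not tested. No paired analysis was possible because the mouse numbers are not shared between the groups.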

Other observations

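The 2 deposited tables give different reads for all 5 members and *Wisp3*, and the same reads for 6725 of the 31137 genes they share. Over the 12 mice, the reads behind the normalized table were 1007 for *Ctgf* against 1134 in the raw table, 182 against 164 for *Wisp1*, and 30 against 14 for *Wisp3*. *Cyr61*, *Nov* and *Wisp2* had 3984, 451 and 956 against 3945, 443 and 948. On the reads of the normalized table the log2 fold change of *Ctgf* was -0.37 (unadjusted p = 0.0449, adjusted p = 0.347 from edgeR), against -0.36 in the raw table.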
